A study of Mus musculus with 33 samples.

Results

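The 9 genes described here encode proteins that break down, make, take up and bind retinoids, and they were taken by name from the 37991 gene identifiers counted in each of 33 RNA-seq libraries. Cyp26a1, Cyp26b1 and Cyp26c1 encode the cytochrome P450 enzymes that oxidise retinoic acid (RA) to inactive products. Dhrs3 encodes a reductase that turns retinaldehyde back into retinol. Rdh10 and Aldh1a2 encode the enzymes of the pair of oxidations that make RA, from retinol to retinaldehyde and from retinaldehyde to RA. Stra6 encodes the membrane receptor through which cells take up retinol from retinol-binding protein. Crabp1 and Crabp2 encode small cytosolic proteins that bind RA. Each of the 9 genes was found by a single identifier.

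RA is made by neighbouring tissues of the embryo and diffuses into cells, where it binds nuclear receptors of the RAR and RXR families that sit on DNA at direct repeats of a short half-site. Several genes of retinoid metabolism are themselves textbook targets of these receptors, Cyp26a1 above all, so that added RA raises the enzymes that remove it. CRABP2 is known to carry RA to the receptors in the nucleus, while CRABP1 is linked to its turnover in the cytosol. Stem cells exposed to RA in culture are widely used to obtain neural cells.

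E14TG2a, an embryonic stem cell line of the mouse, gave RNA at 3 stages. The stages were undifferentiated mESCs, embryoid bodies (EBs) harvested on day 8, and EBs that received 5 µM RA from day 4 and were harvested on the same day (EBs + RA). Neil1 and Neil2 encode DNA glycosylases, enzymes that cut damaged bases out of DNA, and Apex1 encodes the endonuclease that acts on the site they leave. Mutant lines were made by transfecting Cas9 with guide RNAs under puromycin selection, and the wild-type control clones received the empty Cas9 plasmid. Each of the control (clones #1, #4 and #7), Neil1 knockout (#7, #9 and #11) and Neil2 knockout (#1, #11 and #14) groups had 3 independent clones at every stage, listed below in this order. The Apex1 knockout was 1 clone (#46) in technical duplicates, so its values cannot separate the genotype from the clone. Its duplicates were summed to 1 library, and its tests assume that the clone varied like the clones of the other groups. The design asks how the retinoid genes stood in each stage, how RA moved them, and whether the mutants differed from the control.

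The deposited values were raw counts per gene, between 21523742 and 48350904 per library with a median of 26720028, and they are given below as CPM, counts scaled to the same library total by TMM over all 33 libraries. Replicate libraries of a group, the Apex1 duplicates included, never matched to within counting noise in the 30 pairs compared, with a chi-squared per degree of freedom of 5.58 to 127. The mESC library of Neil1 clone #11 held counts for 0 of 345 genes beyond a point on chromosome X and for 166 of 166 before it, while 345 and 342 of the former held counts in its EBs and EBs + RA. None of the 9 genes is on chromosome X, and values without this library are given where it enters. Each knockout is a partial deletion, which counts summed over a whole gene do not check. Neil1 had 1.38 to 31.5 CPM in the libraries labelled Neil1 knockout and 4.89 to 13.4 CPM in all others, and Neil2 had 4.87 to 17.9 CPM in those labelled Neil2 knockout. Apex1 had 56.5 to 86.2 CPM in the libraries labelled Apex1 knockout and 4.45 to 22.0 CPM in all others. Among the lineage markers, the summed pluripotency list stood at 5611 to 8501 CPM in mESCs and at 214 to 338 CPM in control EBs + RA. It does not set the mutant EBs apart from mESCs, with 5336 to 6814 CPM in Neil1, 5031 to 6663 CPM in Neil2 and 6587 to 6723 CPM in Apex1 EBs.

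On the genome build NCBIM37, Cyp26c1 (ENSMUSG00000062432, chr19:37760071-37767888) and Cyp26a1 (ENSMUSG00000024987, chr19:37772298-37776018) are neighbours on the plus strand with a gap of 4409 bases. Cyp26b1 (ENSMUSG00000063415) lies on the minus strand at chr6:84521938-84543740. Dhrs3 (ENSMUSG00000066026) is at chr4:144482730-144518112, Rdh10 (ENSMUSG00000025921) at chr1:16095855-16123815 and Crabp2 (ENSMUSG00000004885) at chr3:87752588-87757298, all on the plus strand. Crabp1 (ENSMUSG00000032291, chr9:54612555-54620917), Stra6 (ENSMUSG00000032327, chr9:57911595-58001803) and Aldh1a2 (ENSMUSG00000013584, chr9:71063596-71144050) lie on the plus strand of chromosome 9, the chromosome of Neil1, at distances of 2.37, 0.916 and 14.1 Mb from it. Stra6 overlaps Ccdc33 on the opposite strand and Gm16131 on its own strand. The library kit does not mark strand, so some Stra6 counts may come from either neighbour.

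Promoter windows of RefSeq on the build GRCm38.p6, 250 bases before to 50 bases after a start, were matched by symbol for 7 of the 9 genes, which gave 12 windows. Rdh10 and Crabp2 had none. The Cyp26a1 window (chr19:37697558-37697857, plus strand) is shown because it was the only window of the 7 genes with a direct repeat of receptor half-sites at the searched spacings. Those of Aldh1a2 (chr9:71215539-71215838, plus strand) and Crabp1 (chr9:54764498-54764797, plus strand) are shown because these genes differed most between mutant and control EBs + RA. Capitals mark the half-sites of the repeat.
Cyp26a1: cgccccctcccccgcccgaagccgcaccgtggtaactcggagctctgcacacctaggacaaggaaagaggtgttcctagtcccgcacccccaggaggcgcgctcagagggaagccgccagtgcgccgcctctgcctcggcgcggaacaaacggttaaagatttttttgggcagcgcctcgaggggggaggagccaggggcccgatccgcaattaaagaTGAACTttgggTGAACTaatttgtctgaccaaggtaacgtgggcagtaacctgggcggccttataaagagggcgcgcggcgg
Aldh1a2: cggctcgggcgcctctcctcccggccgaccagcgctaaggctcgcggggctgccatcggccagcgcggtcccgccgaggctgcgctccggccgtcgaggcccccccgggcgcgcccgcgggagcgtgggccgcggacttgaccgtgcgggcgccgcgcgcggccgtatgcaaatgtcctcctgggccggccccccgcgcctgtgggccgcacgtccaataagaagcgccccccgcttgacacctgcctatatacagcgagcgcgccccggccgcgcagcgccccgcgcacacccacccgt
Crabp1: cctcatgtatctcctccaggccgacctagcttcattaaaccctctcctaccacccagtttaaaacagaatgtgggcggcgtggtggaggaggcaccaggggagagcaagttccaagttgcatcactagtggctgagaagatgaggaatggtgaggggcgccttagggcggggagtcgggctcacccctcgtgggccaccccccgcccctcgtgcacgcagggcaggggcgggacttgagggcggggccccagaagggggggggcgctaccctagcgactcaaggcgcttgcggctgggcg
The search took AGGTCA as the half-site, allowed AGTTCA or else GGGTCA or else GGTTCA in its place, and required both half-sites in the same orientation, on both strands, with a spacer of 5 or 2 bases. The Cyp26a1 repeat has a spacer of 5 bases, reads on the opposite strand, and lies from −32 to −16 relative to the start. Of all 32851 windows in the RefSeq table, 32 (0.0974%) held a repeat with a spacer of 5 bases and 88 (0.268%) with a spacer of 2 bases. The window of Rarb, which encodes the RA receptor beta, held such a repeat from −53 to −37. GC content was 62.3% for Cyp26a1, 78% for Aldh1a2 and 65% for Crabp1, with 26, 50 and 17 CpG dinucleotides in the 300 bases. These matches describe letters in a window and not receptor binding.

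Levels of different genes were set side by side per kb of exon, as CPM per kb. In control mESCs the binding protein gene Crabp1 led with a mean of 57.7 CPM per kb, followed by Crabp2 (4.47), Aldh1a2 (2.70), Cyp26a1 (1.32) and Rdh10 (1.29). Dhrs3 (0.574), Cyp26b1 (0.375) and Stra6 (0.341) followed as means, and Cyp26c1 was last at 0.123. The clone ranges of Cyp26a1 and Rdh10 overlapped, as did those of Dhrs3 with Cyp26b1 and of Cyp26b1 with Stra6, so the order within these runs is not set. In control EBs the order opened with Cyp26a1 at 57.9 CPM per kb, then Crabp1 (24.4), Crabp2 (10.7) and Rdh10 (5.26). Dhrs3 (2.00) and Aldh1a2 (1.95) overlapped, as did Cyp26c1 (0.457) and Stra6 (0.401), and Cyp26b1 was last at 0.236.

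In control EBs + RA the ranges of Cyp26a1 (mean 367 CPM per kb) and Crabp2 (297) overlapped, as did those of Crabp2 and Crabp1 (257). Cyp26b1 (55.8) and Dhrs3 (55.4) also overlapped, and below them stood Aldh1a2 (40.5), Rdh10 (10.9), Stra6 (7.85) and Cyp26c1 (3.51). The mutant EBs + RA kept Cyp26a1 in front, at 798 CPM per kb in Neil1, 786 in Neil2 and 313 in Apex1. Their lower order differed from the control's in the binding proteins and Aldh1a2. Crabp1 was down to 5.46 CPM per kb in Neil1, in a run that overlapped Stra6 (7.82) and Cyp26c1 (6.13), and Aldh1a2 came last at 1.95. In Neil2, Crabp1 (13.1), Rdh10 (11.8), Stra6 (8.10), Cyp26c1 (6.89) and Aldh1a2 (3.45) formed a run in which each overlapped the next. In Apex1, Crabp1 (44.2) overlapped Cyp26b1 (46.8), and Aldh1a2 stood at 13.8.

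**Figure D1:**
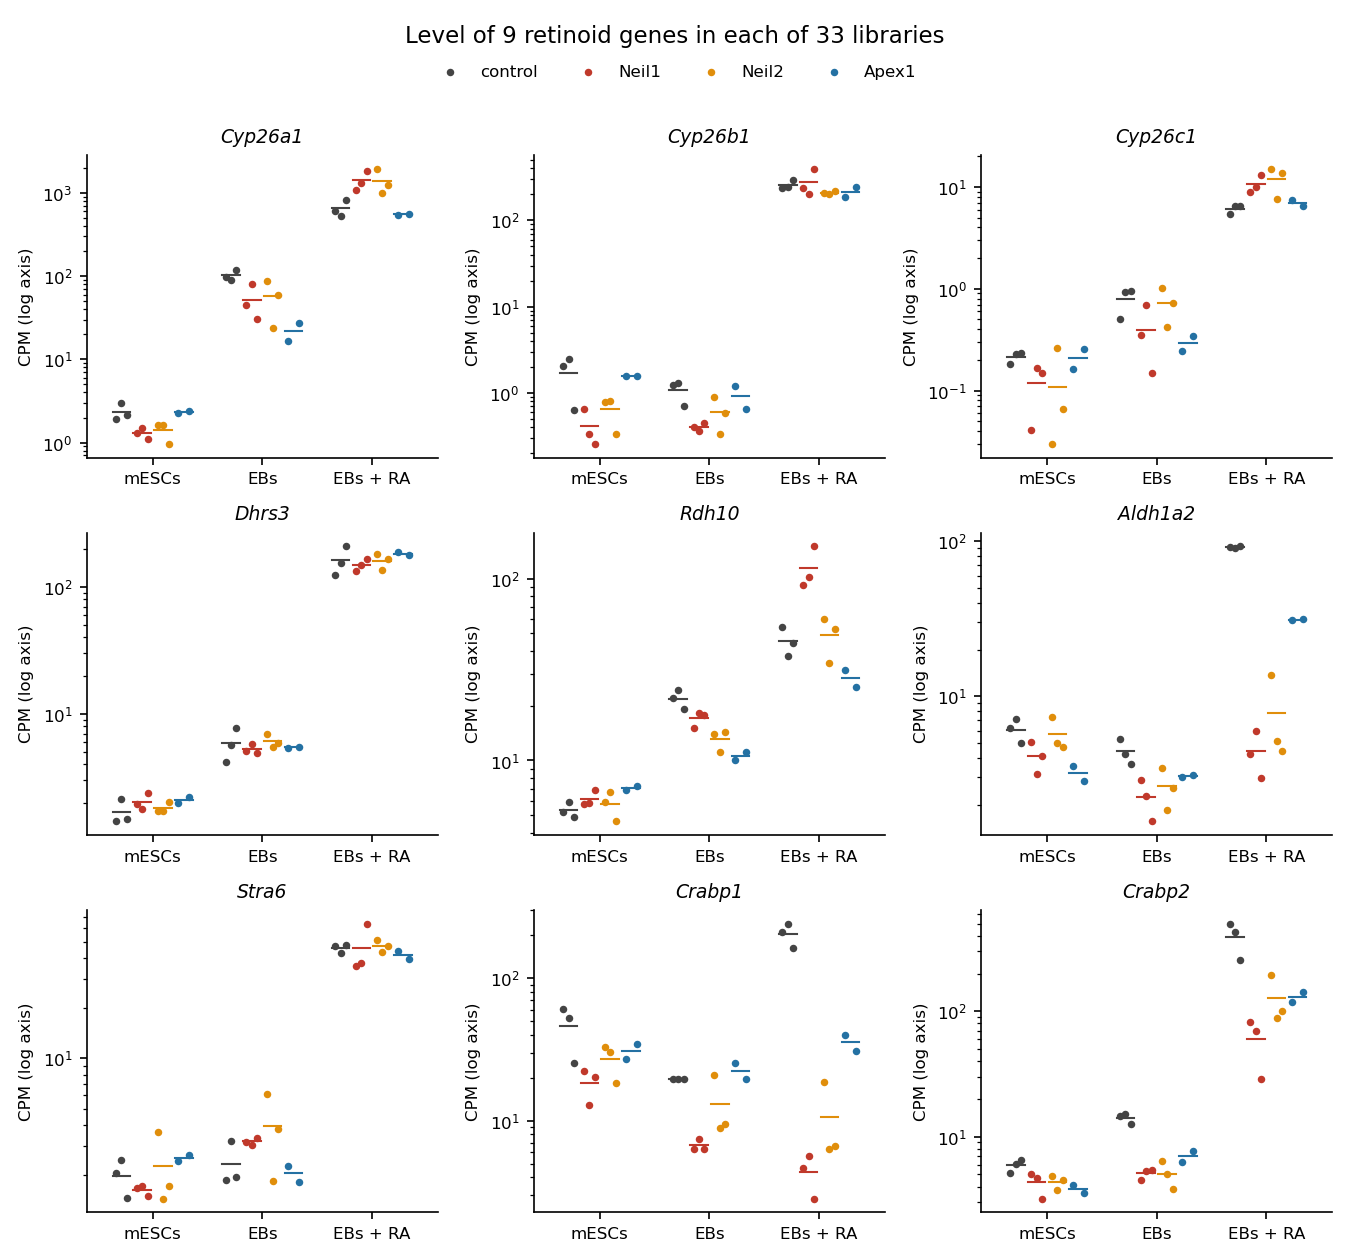
Each panel shows the level of a gene in CPM on a log axis in all 33 libraries, with mESCs, EBs and EBs + RA along the horizontal axis, a point per library and a short line at the group mean; the Cyp26c1 library with 0 counts is drawn at the bottom of its panel. The highest library of each gene is an EBs + RA library, and Aldh1a2 and Crabp1 in the Neil1 and Neil2 clones (2.99 to 13.8 CPM and 2.83 to 18.6 CPM) lie far below the control clones there (90.3 to 92.8 CPM and 164 to 241 CPM).

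RA raised all 9 genes in the control clones (9 of 9 tested), where 23.3% of the 15919 genes tested were raised. A gene was called when edgeR's quasi-likelihood test gave an FDR below 0.1 after Benjamini-Hochberg adjustment over all genes tested and the absolute log2 fold change was above 0.5. The rises ran from a log2 fold change of 1.04 for Rdh10 to 7.85 for Cyp26b1. In each gene all 3 clones of control EBs + RA lay above all 3 clones of control EBs. The RA response is paired by clone, and with the clone as a block all 9 stayed called.

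The enzymes of RA breakdown rose to very different degrees. Cyp26b1 had 1.24, 1.32 and 0.700 CPM in control EBs and 236, 241 and 293 CPM in control EBs + RA. The log2 fold change was 7.85 with a standard error (SE) of 0.22 and an FDR of 2.39e-07, or 230-fold, from a level at which single clones held 19 to 59 counts. Cyp26a1 was already at 97.6, 90.8 and 120 CPM in EBs and reached 599, 530 and 821 CPM with RA. Its log2 fold change of 2.65 (SE 0.19, FDR 1.54e-05) was thus smaller, although its level was the highest of the breakdown enzymes at both stages. Cyp26c1 went from 0.504, 0.934 and 0.958 CPM to 5.39, 6.52 and 6.46 CPM (log2 fold change 2.96, SE 0.30, FDR 7.15e-05). It was the lowest of the 3 breakdown genes with RA.

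Dhrs3, which opposes RA synthesis by reducing retinaldehyde, rose from 4.16, 5.68 and 7.74 CPM to 123, 155 and 208 CPM in the control (log2 fold change 4.80, SE 0.29, FDR 9.85e-06). The synthesis genes split. Rdh10 moved from 22.1, 24.4 and 19.1 CPM to 53.9, 37.4 and 44.6 CPM (log2 fold change 1.04, SE 0.16, FDR 0.000661). Aldh1a2, the main RA-forming dehydrogenase of the early embryo, moved from 5.32, 4.28 and 3.65 CPM to 92.3, 90.3 and 92.8 CPM (log2 fold change 4.35, SE 0.15, FDR 4.71e-07). The 3 control clones with RA were within 3 CPM of each other for Aldh1a2.

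Stra6, the retinol uptake receptor, rose from 1.87, 3.19 and 1.95 CPM to 46.7, 42.5 and 48.0 CPM (log2 fold change 4.30, SE 0.21, FDR 2.14e-06). The binding protein Crabp1 stood at 19.6, 19.5 and 19.6 CPM in control EBs and at 213, 241 and 164 CPM with RA (log2 fold change 3.38, SE 0.15, FDR 1.2e-06). Crabp2 stood at 14.6, 15.2 and 12.6 CPM without and at 498, 426 and 256 CPM with RA (log2 fold change 4.78, SE 0.25, FDR 4.72e-06). Clone #7 was the lowest control for both binding proteins in EBs + RA, and still far above every EB clone.

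In the Neil1 clones RA raised 8 of the 9 genes, where 28.2% of all genes tested were raised, and lowered 1, where 25.2% were lowered. The Neil2 and Apex1 lines also had 8 of 9 raised, with backgrounds of 21.4% and 12.6%, and neither had a member lowered. The gene that was not called raised in any mutant was Crabp1. In Neil1 it had 6.30, 7.48 and 6.29 CPM in EBs and 4.68, 5.62 and 2.83 CPM in EBs + RA, all 3 below the EB clones (log2 fold change −0.65, SE 0.28, FDR 0.0774). This fall kept its call in 1 of 6 fits that left out 1 library and lost it with all stages and genotypes in 1 fit (FDR 0.24). Those fits gave FDRs of 0.111 to 0.204 where it was lost, without EB clone #7, #9 or #11 or without EB + RA clone #7 or #11. In Neil2 the Crabp1 values were 21.0, 8.91 and 9.50 CPM without and 18.6, 6.32 and 6.67 CPM with RA, which overlap (log2 fold change −0.35, SE 0.49, FDR 0.597). Without the EB + RA library of Neil2 clone #1 it was −1.04 with an FDR of 0.0842. The Apex1 duplicates had 25.3 and 19.6 CPM without and 40.1 and 30.7 CPM with RA (log2 fold change 0.63, SE 0.63, FDR 0.544).

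Aldh1a2 did pass the limits in the Neil clones, but at a level far from the control's. The Neil1 clones went from 2.90, 2.28 and 1.56 CPM to 4.25, 6.01 and 2.99 CPM (log2 fold change 0.95, SE 0.34, FDR 0.0429). This call was lost without EB + RA clone #9 (FDR 0.157), EB clone #9 (FDR 0.11) or EB clone #11 (FDR 0.134). The Neil2 clones went from 3.47, 1.84 and 2.57 CPM to 13.8, 5.14 and 4.45 CPM (log2 fold change 1.54, SE 0.47, FDR 0.0323), a call lost without EB clone #14 (FDR 0.105). In the Apex1 line Aldh1a2 went from 3.04 and 3.12 CPM to 31.0 and 31.6 CPM (log2 fold change 3.33, SE 0.65, FDR 0.00267).

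The other 7 genes rose with RA in every genotype. Cyp26b1 gave log2 fold changes of 9.38 in Neil1, 8.36 in Neil2 and 7.87 in Apex1, and Cyp26c1 gave 4.71, 4.01 and 4.51. For Cyp26a1 the values were 4.73, 4.59 and 4.66. Dhrs3 gave 4.78, 4.69 and 5.05, close to the control's 4.80. For Rdh10 they were 2.72, 1.87 and 1.38, for Stra6 3.80, 3.55 and 4.32, and for Crabp2 3.52, 4.62 and 4.22. All 21 of these tests had an FDR below 0.1, with the highest at 0.0165 for Rdh10 in Apex1.

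**Figure D2:**
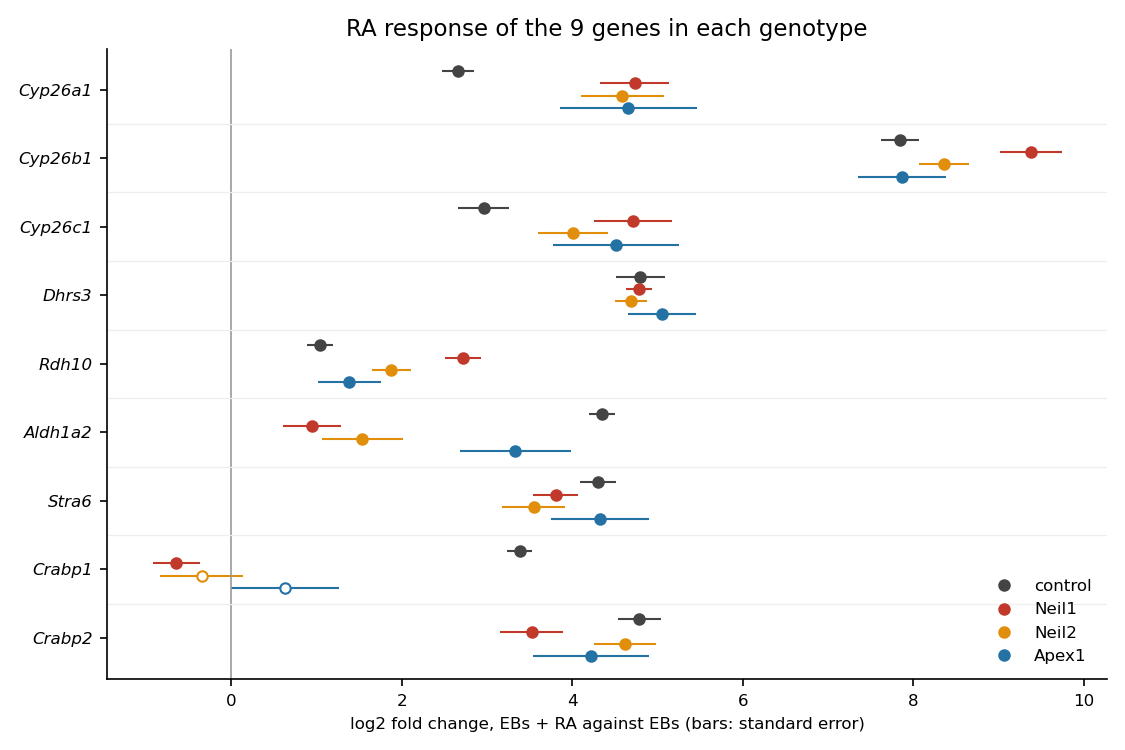
Log2 fold change of EBs + RA against EBs for each gene, with control, Neil1, Neil2 and Apex1 in separate colours and horizontal bars for the standard error; filled points passed the call limits and open points did not. Crabp1 is at 3.38 in the control and between −0.65 and 0.63 in the mutants, whereas Dhrs3 lies between 4.69 and 5.05 in every genotype.

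In EBs + RA the Neil1 clones had 3 of the 9 genes raised and 3 lowered against the control, where 21.2% and 19.9% of all genes tested were raised and lowered. The Neil2 clones had 2 raised (background 18.3%) and 3 lowered (background 16.6%). Both comparisons use the same control clones, so their values are given side by side and not as repeats of each other. Counts over 9 genes are small beside such backgrounds, and the results below are those of single genes.

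Crabp1 fell most. Its control values of 213, 241 and 164 CPM stood against 4.68, 5.62 and 2.83 CPM in Neil1 and 18.6, 6.32 and 6.67 CPM in Neil2. No mutant clone came within reach of the lowest control clone. The log2 fold change was −5.54 in Neil1 (SE 0.29, FDR 5.47e-05), a level 46.6-fold lower, and −4.27 in Neil2 (SE 0.44, FDR 0.000558), 19.3-fold lower. The Apex1 duplicates had 40.1 and 30.7 CPM, also below all controls (log2 fold change −2.53, SE 0.62, FDR 0.0488). This was the only member called in Apex1 EBs + RA, where 2.25% of all genes tested were lowered. The Apex1 call was lost without control clone #1 (FDR 0.165) or #4 (FDR 0.155) and with no filter on low counts (FDR 0.188).

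Aldh1a2 followed. Against 92.3, 90.3 and 92.8 CPM in the control it had 4.25, 6.01 and 2.99 CPM in Neil1 and 13.8, 5.14 and 4.45 CPM in Neil2. The log2 fold changes were −4.36 (SE 0.25, FDR 7.98e-05) and −3.54 (SE 0.41, FDR 0.00082), or 20.6-fold and 11.6-fold lower. In the Apex1 line it had 31.0 and 31.6 CPM, below every control clone, with a log2 fold change of −1.52 (SE 0.57) that missed the limit in this test (FDR 0.171). It passed with DESeq2 (FDR 0.0516) and with all stages and genotypes in 1 fit (FDR 0.0525).

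Crabp2 was lowered to a smaller degree. The control clones had 498, 426 and 256 CPM, the Neil1 clones 82.2, 69.7 and 28.7 CPM, and the Neil2 clones 194, 89.1 and 101 CPM. All mutant clones lay below all controls, with log2 fold changes of −2.70 (SE 0.41, FDR 0.00243) and −1.60 (SE 0.34, FDR 0.00941). The Apex1 duplicates at 118 and 142 CPM gave −1.55 (SE 0.62, FDR 0.201), which DESeq2 (FDR 0.0579) and the fit of all libraries (FDR 0.0446) called. Crabp2 differs from Crabp1 in that its rise with RA was called in each mutant line, as given above.

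Cyp26a1 and Cyp26c1 went the other way. Cyp26a1 had 599, 530 and 821 CPM in the control, 1093, 1313 and 1839 CPM in Neil1 and 1935, 1007 and 1236 CPM in Neil2. All 6 Neil clones lay above the highest control, and the log2 fold changes were 1.13 (SE 0.23, FDR 0.00803) and 1.12 (SE 0.26, FDR 0.0134). The Apex1 duplicates at 547 and 563 CPM lay within the control range (log2 fold change −0.20, SE 0.38, FDR 0.835). Cyp26c1 had 8.83, 10.1 and 13.2 CPM in Neil1 and 15.0, 7.53 and 13.6 CPM in Neil2 against at most 6.52 CPM in the control (log2 fold changes 0.81, SE 0.23, FDR 0.0262, and 0.99, SE 0.28, FDR 0.026). Both Cyp26c1 calls were lost without control clone #1 (FDR 0.116 and 0.106), and that in Neil1 also with all stages and genotypes in 1 fit (FDR 0.105).

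Rdh10 was raised in Neil1 EBs + RA, where its 92.1, 102 and 151 CPM exceeded the 37.4 to 53.9 CPM of the control clones (log2 fold change 1.35, SE 0.22, FDR 0.00287). The Neil2 clones, at 59.8, 34.5 and 53.1 CPM, spanned the control range (log2 fold change 0.14, SE 0.22, FDR 0.659). In Apex1 it had 31.3 and 25.3 CPM (log2 fold change −0.67, SE 0.35, FDR 0.344). Cyp26b1, Dhrs3 and Stra6 were called in no mutant at this stage. Their log2 fold changes ran from −0.27 (Cyp26b1 in Neil2, SE 0.12, FDR 0.115) to 0.20 (Dhrs3 in Apex1, SE 0.27, FDR 0.749).

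**Figure D3:**
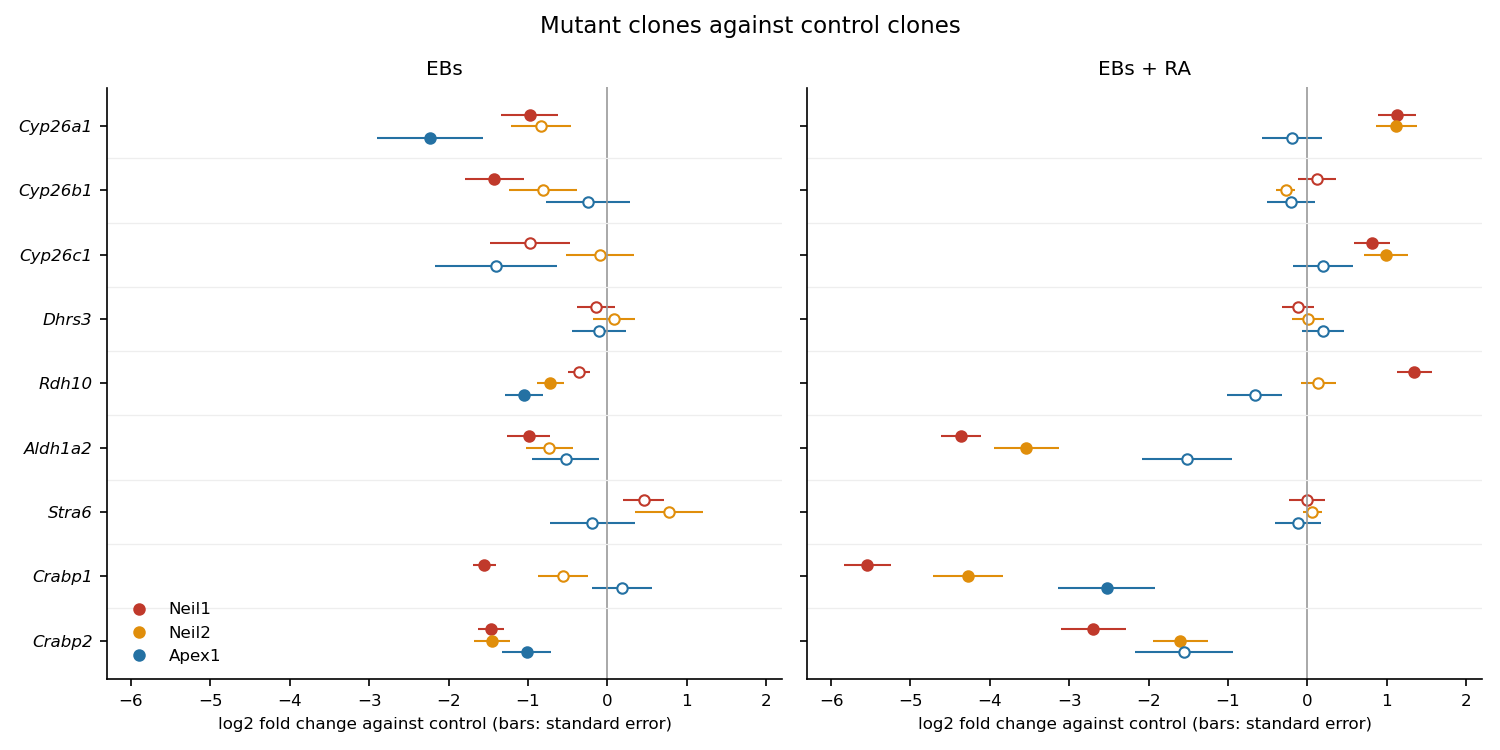
Log2 fold change of each mutant against control in EBs (left) and EBs + RA (right), with bars for the standard error, filled points for called genes and open points for genes not called. On the right, Crabp1 and Aldh1a2 lie at −5.54 and −4.36 in Neil1 and Cyp26a1 at 1.13, while Dhrs3 and Stra6 stay near 0.

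Markers of cell types moved with these differences. The summed level of 9 neural progenitor markers in EBs + RA was 218 to 461 CPM in the control clones, 28.8 to 52.2 CPM in Neil1, 45.7 to 61.1 CPM in Neil2 and 77.0 to 78.2 CPM in Apex1. Of these markers, Nes had 118 to 157 CPM in the control against 11.6 to 27.3 CPM in Neil1 and 20.5 to 22.4 CPM in Neil2, and Pax6 had 47.8 to 128 CPM against 3.68 to 6.94 and 5.90 to 7.74 CPM. Sox3, the other leading marker, overlapped, with 15.9 to 63.4 CPM in the control, 12.2 to 22.5 CPM in Neil1, 14.0 to 27.5 CPM in Neil2 and 15.7 to 28.2 CPM in Apex1. The 10 neural crest markers summed to 102 to 199 CPM in the control, 22.8 to 29.9 CPM in Neil1, 27.0 to 33.6 CPM in Neil2 and 61.7 to 65.9 CPM in Apex1. The control and mutant ranges did not overlap for either list. A marker was below 0.1 CPM for 3 of 9 neural progenitor genes in Neil1 and 2 of 9 in Neil2, and for 0 of 9 in the control and Apex1.

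The 10 pluripotency markers went in the opposite direction, with 214 to 338 CPM in control EBs + RA, 574 to 1042 CPM in Neil1, 610 to 1827 CPM in Neil2 and 1767 to 2379 CPM in Apex1. The endoderm list stood at 184 to 653 CPM in the control and at 676 to 1390 CPM in Neil1, 220 to 768 CPM in Neil2 and 254 to 260 CPM in Apex1. Early and paraxial mesoderm markers summed to 95.3 to 126 CPM in the control, 37.1 to 118 CPM in Neil1, 47.4 to 60.4 CPM in Neil2 and 95.6 to 98.3 CPM in Apex1. For endothelial and blood markers the ranges were 36.3 to 40.5, 34.2 to 152, 23.7 to 47.2 and 45.7 to 55.3 CPM. Whole EBs were sequenced, so fewer cells of a type and less RNA per cell cannot be told apart, and the part of these markers in the lower Aldh1a2, Crabp1 and Crabp2 and in the higher Cyp26a1, Cyp26c1 and Rdh10 was not tested.

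Neil1 clone #11 stood apart from clones #7 and #9 in EBs + RA. Its mesoderm sum was 118 CPM against 41.9 and 37.1 CPM, its endothelial and blood sum 152 CPM against 39.1 and 34.2 CPM, and its endoderm sum 1390 CPM against 676 and 1117 CPM. It also had the highest Cyp26a1 and Rdh10 and the lowest Aldh1a2, Crabp1 and Crabp2 of the Neil1 clones. Without it the same number of members, 6, was called, with log2 fold changes of 0.89 for Cyp26a1, 0.63 for Cyp26c1, 1.11 for Rdh10, −4.16 for Aldh1a2, −5.32 for Crabp1 and −2.37 for Crabp2.

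**Figure D4:**
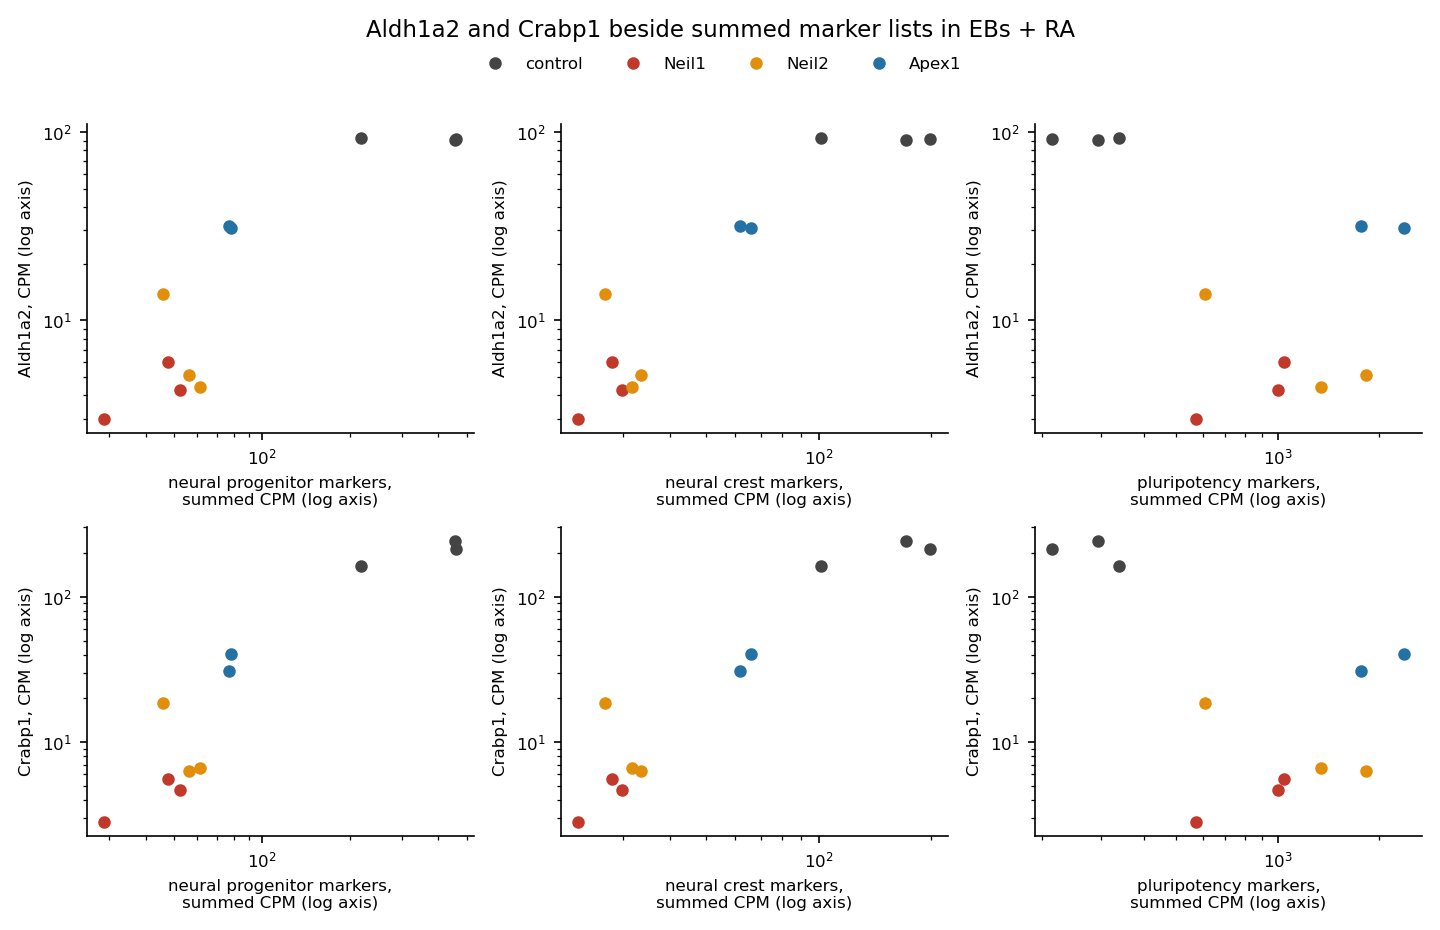
Level of Aldh1a2 (top) and Crabp1 (bottom) in each of the 11 EBs + RA libraries against the summed CPM of neural progenitor, neural crest and pluripotency markers, with log axes throughout and a colour per genotype. The control libraries form a group apart in each panel, with 218 to 461 CPM of neural progenitor markers and 214 to 338 CPM of pluripotency markers, and the 2 Apex1 libraries lie between them and the Neil libraries in the level of both genes.

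In EBs without RA the Neil1 clones had 5 of the 9 genes lowered, where 13.1% of all genes tested were lowered. The clearest were both binding proteins. Crabp1 had 19.6, 19.5 and 19.6 CPM in the control and 6.30, 7.48 and 6.29 CPM in Neil1 (log2 fold change −1.55, SE 0.14, FDR 2.62e-05). Crabp2 had 14.6, 15.2 and 12.6 CPM and 4.50, 5.37 and 5.40 CPM (log2 fold change −1.47, SE 0.16, FDR 9.89e-05). For both, no Neil1 clone reached a control clone.

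Aldh1a2 was lowered in Neil1 EBs, from 5.32, 4.28 and 3.65 CPM to 2.90, 2.28 and 1.56 CPM (log2 fold change −0.99, SE 0.27, FDR 0.0188). Cyp26b1 fell from 1.24, 1.32 and 0.700 CPM to 0.400, 0.366 and 0.447 CPM, values that rest on 8 to 12 counts per Neil1 clone (log2 fold change −1.42, SE 0.37, FDR 0.0146). Cyp26a1 was at 44.6, 80.8 and 30.8 CPM against 97.6, 90.8 and 120 CPM, below the controls in all clones (log2 fold change −0.98, SE 0.36, FDR 0.0995). The Cyp26a1 call is marginal: it held in 1 of 6 fits that left out 1 library, that without Neil1 clone #9, and without Neil1 clone #7 or #11 or any control clone the FDR was 0.13 to 0.242. Rdh10 passed the FDR limit at 0.0768 but not the fold limit (log2 fold change −0.35, SE 0.14).

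Neil2 EBs had 2 members lowered, with a background of 7.69%. Crabp2 had 6.41, 5.02 and 3.83 CPM (log2 fold change −1.45, SE 0.23, FDR 0.00518) and Rdh10 had 14.1, 11.1 and 14.3 CPM against 22.1, 24.4 and 19.1 CPM in the control (log2 fold change −0.72, SE 0.17, FDR 0.026). All Neil2 clones were below all controls for both genes. The Rdh10 call was lost without control clone #1 (FDR 0.107) or #4 (FDR 0.131). Neil2 clone #1 stood apart from clones #11 and #14 for Crabp1, with 21.0 CPM against 8.91 and 9.50 CPM. It was also the highest for Cyp26a1, with 87.7 CPM against 23.8 and 59.3 CPM, which lie far from each other too. Without clone #1, 6 members were called, among them Crabp1 at a log2 fold change of −1.10 (FDR 0.00061), and without control clone #1 or #4, 1 was. The chi-squared per degree of freedom of Neil2 EB clone #1 was 101 with clone #11 and 54.2 with clone #14, against 25.2 between those clones. Leaving it out changes the spread of every gene. The share of all genes called in these fits is not given here, so the counts have no background.

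The Apex1 line had 3 members lowered in EBs, with a background of 4.77%. Cyp26a1 had 16.5 and 27.0 CPM (log2 fold change −2.23, SE 0.67, FDR 0.0869), Rdh10 had 10.1 and 11.2 CPM (−1.04, SE 0.24, FDR 0.0333) and Crabp2 had 6.28 and 7.66 CPM (−1.02, SE 0.31, FDR 0.0843), all below the control clones. Without Apex1 duplicate 1, control clone #1 or control clone #7, 1 of the 3 calls was left, and without control clone #4 none was. Crabp1 stood at 25.3 and 19.6 CPM, close to the control (log2 fold change 0.19, SE 0.38, FDR 0.84), in contrast to its values in Neil1.

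The remaining members passed no limits in mutant EBs. Cyp26c1 gave log2 fold changes of −0.97, −0.09 and −1.40 in Neil1, Neil2 and Apex1, from 4 to 32 counts per EB library, and Stra6 gave 0.46 in Neil1 and 0.78 in Neil2 (FDRs 0.22 and 0.294). Dhrs3 gave −0.14 and 0.09, with overlapping clones throughout. Aldh1a2 missed the limits in Neil2 (−0.73, SE 0.29, FDR 0.149) and Apex1 (−0.53, SE 0.43, FDR 0.54), although all its values there lay below the control clones.

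Pluripotency markers summed to 3417 to 4062 CPM in control EBs and to 5031 to 6814 CPM in Neil1 and Neil2 EBs and 6587 to 6723 CPM in Apex1 EBs. The neural crest list was at 107 to 179 CPM in the control and at 31.5 to 54.4 CPM in all mutants, and the mesoderm list at 351 to 457 CPM in the control, 61.5 to 78.0 CPM in Neil1 and Neil2 and 143 to 169 CPM in Apex1. Most of the neural crest sum in control EBs was Msx1 (65.2 to 123 CPM, against 2.53 to 4.00 CPM in the Neil clones), while Foxd3 of the same list was higher in Neil1 EBs (27.0 to 33.7 CPM) than in the control (10.4 to 20.2 CPM). Neural progenitor markers were at 41.3 to 52.5 CPM in the control and at 31.2 to 36.0 CPM in the mutants. The endoderm list was at 365 to 778 CPM in the control, 516 to 784 CPM in Neil1, 200 to 1014 CPM in Neil2 and 98.5 to 117 CPM in Apex1. Endothelial and blood markers were at 111 to 133, 89.0 to 109, 72.6 to 97.6 and 71.6 to 72.4 CPM in the same order. The part of these lists in the lower Crabp1, Crabp2, Aldh1a2, Cyp26a1, Cyp26b1 and Rdh10 of mutant EBs was not tested.

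In mESCs edgeR called 0 of the 8 members tested in Neil1, Neil2 and Apex1, where 1.82%, 1.83% and 1.98% of all genes tested were called. Cyp26c1, with at most 7 counts in any mESC library, did not pass the filter on low counts. Before adjustment 3, 3 and 1 members had a p below 0.05, as had 2387 of 15569, 2361 of 15615 and 3066 of 16993 genes tested. DESeq2 called 2, 0 and 1 members, and 6.43%, 5.32% and 11.4% of all genes. Crabp1 had 60.9, 52.6 and 25.4 CPM in the control clones, 22.3, 12.9 and 20.2 CPM in Neil1, 32.7, 30.2 and 18.3 CPM in Neil2, and 26.9 and 34.3 CPM in Apex1. Control clone #7 lay near the mutant values. The log2 fold change was −1.34 in Neil1 (SE 0.33, FDR 0.125), where DESeq2 called it, and −0.79 in Neil2 (SE 0.32, FDR 0.283). Cyp26b1 showed the same layout, with 2.05, 2.50 and 0.629 CPM in the control, 0.651, 0.337 and 0.258 CPM in Neil1 and 0.797, 0.816 and 0.333 CPM in Neil2.

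The Cyp26b1 log2 fold changes were −2.06 in Neil1 (SE 0.58, FDR 0.157), called by DESeq2 as well, and −1.44 in Neil2 (SE 0.54, FDR 0.259). Without control clone #7, Cyp26b1 and Crabp1 were called in both Neil1 and Neil2 mESCs, with FDRs of 0.0139 to 0.0261, and Aldh1a2 in Apex1 mESCs (log2 fold change −1.07, FDR 0.0897). The chi-squared per degree of freedom of this mESC clone was 61.3 with clone #1 and 62.1 with clone #4, against 9.55 between those clones. Leaving it out changes the spread of every gene. The share of all genes called without it is not given here, so these calls have no background. Without the Neil1 library that lacks counts on part of chromosome X, 0 members were called in Neil1, as with it. Cyp26a1 was at 0.965 to 2.95 CPM, Dhrs3 at 1.43 to 2.40 CPM, Rdh10 at 4.63 to 7.25 CPM and Stra6 at 1.45 to 3.61 CPM over all mESC libraries.

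Between Neil1 and Neil2 clones edgeR called 0 members at each stage and no other gene, so the background was 0% in mESCs, EBs and EBs + RA, and in mESCs 0 members were called too without the library that lacks counts on chromosome X. Before adjustment 0, 1 and 3 members had a p below 0.05, as had 915 of 15384, 735 of 15294 and 1608 of 15884 genes tested. In EBs + RA these members were Rdh10 (log2 fold change Neil1 against Neil2 1.25, SE 0.26, FDR 0.486), Crabp1 (−1.24, SE 0.47, FDR 0.486) and Crabp2 (−1.07, SE 0.42, FDR 0.486). DESeq2 and the fit of all stages and genotypes each called Rdh10, with FDRs of 0.0132 and 0.0199, and called 0.742% and 0.563% of all genes.

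The step from mESCs to EBs without RA raised 5 members and lowered 1 in the control, with backgrounds of 18.5% and 20.2%. Cyp26a1 rose most, from 1.94, 2.95 and 2.12 CPM to 97.6, 90.8 and 120 CPM (log2 fold change 5.44, SE 0.20, FDR 7.72e-07). Rdh10 (2.01, SE 0.17), Cyp26c1 (1.82, SE 0.43), Dhrs3 (1.78, SE 0.31) and Crabp2 (1.24, SE 0.18) rose too, with FDRs of 0.00853 or less. Crabp1 fell (−1.26, SE 0.27, FDR 0.00536), the reverse of its direction under RA in the same clones. Cyp26b1, Aldh1a2 and Stra6, which RA raised strongly, were not called in this step (log2 fold changes −0.68, −0.48 and 0.21).

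The Neil1 clones had 4 of 7 members tested raised (background 13.1%) and 2 lowered (background 14.7%), and 6 were called too without the library that lacks counts on chromosome X. Neil2 had 4 of 9 raised (background 14.4%) and 2 lowered (background 13.1%). Cyp26a1 rose by 5.33 and 5.36 on the log2 scale. Crabp1 fell by 1.45 and 1.01 on the log2 scale, and Aldh1a2 fell by 0.86 and 1.08, though both of the Neil2 calls and the Aldh1a2 call in Neil1 were lost when some single library was left out. For Aldh1a2 those libraries were EB clones #9 and #11 and mESC clone #7 of Neil1 (FDR 0.153 to 0.185), and EB clone #14 and mESC clone #1 of Neil2 (FDR 0.115 and 0.124). For Crabp1 in Neil2 they were EB clones #11 and #14 and mESC clones #1 and #11 (FDR 0.105 to 0.211). In the Apex1 line Cyp26a1 (3.25, SE 0.75, FDR 0.0283) and Dhrs3 (1.40, SE 0.41, FDR 0.0624) were raised, where 4.27% of all genes tested were raised, and 0 members were lowered by edgeR, where 4.19% were. In that comparison 4 members, all higher in EBs, had an unadjusted p below 0.05, as had 3648 of all 17607 genes tested.

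Whether the RA response itself differed between a mutant and the control was tested by an interaction term, called at an FDR below 0.1 with no fold limit. In Neil1, 4 members responded more to RA than in the control and 3 less, where 17.3% and 14.8% of all genes tested did. The interaction of Crabp1, the log2 fold change of the mutant minus that of the control, was −3.98 in Neil1 (SE 0.29, FDR 6.01e-06) and −3.73 in Neil2 (SE 0.56, FDR 0.00101). That of Aldh1a2 was −3.35 (SE 0.35, FDR 5.77e-05) and −2.82 (SE 0.51, FDR 0.00398). Cyp26a1 responded more, by 2.13 (SE 0.44, FDR 0.00662) and 1.94 (SE 0.51, FDR 0.0299), and so did Rdh10, by 1.72 (SE 0.27, FDR 0.000877) and 0.84 (SE 0.29, FDR 0.0852). In Neil1 alone the limit was also passed by Cyp26b1 (1.58, FDR 0.0271), Cyp26c1 (1.80, FDR 0.0324) and Crabp2 (−1.22, FDR 0.0865), and whether Neil1 and Neil2 differed in these was not tested. Each of these 3 calls was lost in more than 1 of the fits that left out 1 clone. Crabp2 was lost without control clone #1 or #4 or Neil1 clone #9 or #11 (FDR 0.113 to 0.245) and with no filter on low counts (FDR 0.205), Cyp26b1 without control clone #1 (FDR 0.129) or #4 (FDR 0.114), and Cyp26c1 without control clone #4 (FDR 0.123) or Neil1 clone #11 (FDR 0.1002). Without control clone #4, 4 of the 7 Neil1 calls were left. The Neil1 EB libraries held 8 to 12 counts of Cyp26b1 and 4 to 17 counts of Cyp26c1. In EBs + RA Cyp26b1 was not called in Neil1, with a mean of 279 CPM against 257 CPM in the control. Its larger response thus goes with a lower level in EBs and not with a called difference in EBs + RA.

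Neil2 had 2 members with a larger and 2 with a smaller response, with backgrounds of 7.42% and 7.98%. With the clone as a block Cyp26c1 was called too, which made 5 (1.07, FDR 0.052), where 24.8% of all genes tested were called. The Cyp26a1 and Rdh10 calls of Neil2 were lost without control clone #1 or #4 or Neil2 clone #14, which left 2 calls. The Rdh10 call was lost as well without control clone #7 (FDR 0.111) or Neil2 clone #1 (FDR 0.105), and the Cyp26a1 call with no filter on low counts (FDR 0.134). Cyp26a1 in the Neil1 clones was lowered in EBs and raised in EBs + RA, and in Neil2 its EB value missed the limit (−0.84, SE 0.38, FDR 0.196). For Dhrs3 and Stra6 no interaction was called (log2 differences 0.04 and −0.45 in Neil1, FDRs 0.947 and 0.361). In Apex1 edgeR called 0 members, where 1.98% of all genes tested were called. An unadjusted p below 0.05 was found for 2 members (Crabp1 and Cyp26a1), as for 2022 of all 18090 genes tested. DESeq2 called 1 member, Crabp1, and 4.53% of all genes. The edgeR value of Crabp1 in Apex1 was −2.74 (SE 0.75, FDR 0.105).

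The receptors stood as follows. RA raised Rarb, a classical target of its own receptor family, by 7.35 on the log2 scale in the control (SE 0.23, FDR 3.12e-07), 6.56 in Neil1, 6.24 in Neil2 and 7.11 in Apex1. Rara (1.18) and Rxra (1.05) rose and Rarg (−2.02) and Rxrg (−1.18) fell in the control, and Rxrb (0.22, FDR 0.089) did not pass the fold limit. In EBs + RA, Rarb was lower than in the control in Neil1 (−0.78, SE 0.15, FDR 0.00638) and Neil2 (−0.92, SE 0.14, FDR 0.00279), while Rarg was higher (1.01, 1.13 and, in Apex1, 1.56). Rxrg was raised in Neil2 (1.21, SE 0.47, FDR 0.0822), with values of −0.02 in Neil1 (FDR 0.971) and 1.31 in Apex1 (FDR 0.27). In EBs, Rarg was raised in Neil1 and Neil2 (0.65 and 0.70) and Rxra in Neil2 (0.60). In mESCs, Rara was lowered in Neil1 (−0.75, FDR 0.0688) and Neil2 (−0.63, FDR 0.0831).

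A list of 34 further genes of retinoid metabolism and transport gives the setting. RA in the control raised 9 and lowered 6 of the 27 tested, where 23.3% of all genes tested were raised and 20.7% lowered. The list had a median log2 fold change of 0.06 against 0.01 for all genes, far from the 4.30 of the 9 members. Aldh1a7 (log2 fold change 6.36) and Aldh1a1 (5.64), retinaldehyde dehydrogenases whose near-identical sequences may share reads, and the alcohol dehydrogenase Adh1 (4.64) rose most, and the retinol-binding protein receptor Rbpr2 fell (−4.40). In the mutants RA raised 13 of 25, 14 of 27 and 8 of 29 and lowered 4, 4 and 2, in Neil1, Neil2 and Apex1. Of all genes tested, 28.2%, 21.4% and 12.6% were raised and 25.2%, 21% and 9.82% lowered. Among the list genes with the largest rises were Aldh1a1, Adh1 and Rdh12 in both Neil1 and Neil2. Rbp4, which encodes the plasma carrier of retinol, was among them in Neil1 (log2 fold change 3.36, SE 0.27) and Apex1 (3.03, SE 1.20, FDR 0.0993).

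Against the control in EBs + RA, the list had 11 of 26 raised and 3 lowered in Neil1, with a median of 0.56, and 8 of 26 raised and 3 lowered in Neil2, with a median of 0.52, where the median of all genes was 0.00. Of all genes tested, 21.2% and 19.9% were raised and lowered in Neil1 and 18.3% and 16.6% in Neil2. In Apex1 2 of 28 list genes were raised and 2 lowered, where 4.97% and 2.25% of all genes tested were. Fabp5, which like CRABP2 is known to carry RA, fell from a mean of 256 ± 81.6 CPM (SD, n = 3) in the control to 61.2 ± 18.5 CPM in Neil1 (log2 fold change −2.06, SE 0.29, FDR 0.00159) and 54.7 ± 5.88 CPM in Neil2 (−2.21, SE 0.24, FDR 0.000705). In Apex1 Fabp5 fell by 1.66 on the log2 scale (SE 0.40, FDR 0.0455). Aldh1a7 was lower in Neil1 (−2.51) and Neil2 (−2.32), Dhrs9 (2.59) and the thyroxine and retinol carrier Ttr (2.01) were higher in Neil1, and Rlbp1 (2.14) was higher in Neil2. Aldh1a1 was lower in Apex1 (−2.20, SE 0.63, FDR 0.0812).

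In EBs the same list had 3 raised and 6 lowered of 25 in Neil1, 3 and 4 of 25 in Neil2 and 1 and 3 of 27 in Apex1, where 10.4%, 8.65% and 4.12% of all genes tested were raised and 13.1%, 7.69% and 4.77% lowered. Fabp5 was again lower in each, with log2 fold changes of −1.46, −1.48 and −1.14, and it was the list's called gene in Neil1 mESCs (−1.17, SE 0.21, FDR 0.076). Aldh1a3, another RA-forming dehydrogenase, fell in Neil1 (−3.12) and Neil2 (−2.65) EBs, as did Rbpr2 (−1.68 and −1.92). Rlbp1 rose there (1.05 and 1.26). In Apex1 EBs Ttr fell (−2.38) and Rbp7 rose (1.72).

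Known RA target genes, 18 in the list, responded in every genotype. RA raised 16 of 18 in the control, 17 of 17 tested in Neil1, 16 of 17 in Neil2 and 18 of 18 in Apex1, with median log2 fold changes of 4.16, 4.41, 4.82 and 3.80 and none lowered. Of all genes tested, 23.3%, 28.2%, 21.4% and 12.6% were raised and 20.7%, 25.2%, 21% and 9.82% lowered. Of the targets, Nr2f1 (8.15), Rarb (7.35), Nr2f2 (6.41) and Stra8 (6.14) rose most in the control. Against the control in EBs + RA, 3 targets were raised and 9 lowered in Neil1 (median −0.66) and 4 raised and 9 lowered in Neil2 (median −0.56). Of all genes tested, 21.2% and 19.9% were raised and lowered in Neil1 and 18.3% and 16.6% in Neil2. Apex1 had 2 targets raised and 0 lowered by edgeR, where 4.97% and 2.25% of all genes tested were. There 7 of 18 targets had an unadjusted p below 0.05, as had 3350 of all 17634 genes tested. Nr2f1, an orphan nuclear receptor, was at 6.19 ± 2.32 CPM in Neil1 and 12.3 ± 5.11 CPM in Neil2 against 189 ± 57.3 CPM in the control (SD, n = 3 each), with log2 fold changes of −4.91 (FDR 0.000129) and −3.93 (FDR 0.000371). Hoxd4 (−4.40 and −5.16) and Nr2f2 (−2.51 and −2.26) fell in both and Tshz1 in Neil1 (−2.06), while Cdx1 rose in Neil2 (2.02) and Apex1 (3.25). In EBs 7 of 15 were lowered in Neil1, 6 of 16 in Neil2 and 4 of 18 in Apex1, led by Zfp703 (−3.71, −3.74 and −2.37). There 13.1%, 7.69% and 4.77% of all genes tested were lowered. Stra8 went the other way in Neil2 EBs, with a mean of 24.0 CPM against 4.81 CPM in the control (2.36, SE 0.45, FDR 0.0115). The number of targets raised in mutant EBs is not given here. In mESCs Meis2 was raised in Neil1 (2.03, FDR 0.0827). The step from mESCs to EBs in the control raised 12 and lowered 3 of 17 targets and raised 11 and lowered 6 of 25 genes of the metabolism list, with Zfp703 (4.79) and Ttr (10.05) rising most and Stra8 (−4.50) and Adh4 (−4.51) falling most. Of all genes tested, 18.5% were raised and 20.2% lowered in that step.

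Across the 12 group means of log2 CPM, the pattern of each member was compared with 15713 genes by Pearson correlation. The means share controls, stages and library depth, so the coefficients are descriptive. The closest genes to Crabp2 were Hoxb3 (r = 0.994) and Hoxb8 (0.993), homeobox genes of a cluster. Cyp26b1 was closest to Krt15 (0.988) and the receptor gene Rarb (0.986). The other members had as nearest genes Stx4a for Cyp26a1 (0.990), Batf3 for Cyp26c1 (0.987), Letmd1 for Dhrs3 (0.990), Creb3 for Rdh10 (0.989), Slc25a21 for Stra6 (0.993), Gm14964 for Aldh1a2 (0.976) and Chrnb4 for Crabp1 (0.982). Among the members themselves, Dhrs3 and Stra6 were alike (0.982), as were Dhrs3 and Cyp26c1 (0.981). Crabp1 stood apart, with 0.742 to Aldh1a2, 0.289 to Crabp2 and −0.238 to 0.129 to the others.

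Genes that start within 2 Mb of a member were examined because Crabp1, Stra6 and Aldh1a2 share a chromosome with Neil1. In Neil1 EBs + RA the 36 genes around Crabp1 had a median log2 fold change of 0.06, with 7 raised and 5 lowered, the 33 around Aldh1a2 −0.17, with 5 raised and 7 lowered, and the 62 around Stra6 −0.17, with 10 raised and 17 lowered. Of all genes tested in Neil1 EBs + RA, 21.2% were raised and 19.9% lowered. In Neil2 EBs + RA the medians were 0.12, −0.10 and 0.07. Around the other members except Dhrs3 the medians in mutant EBs and EBs + RA lay between −0.24 and 0.21.

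Dhrs3 was the exception. Its own level did not differ in EBs + RA, yet the genes around it had medians of 1.05 in Neil1, with 15 of 28 raised, 1.61 in Neil2, with 27 of 33 raised, and 1.24 in Apex1, with 7 of 42 raised, and none was lowered in any of them. Of all genes tested in EBs + RA, 21.2% were raised in Neil1, 18.3% in Neil2 and 4.97% in Apex1. Most raised genes around Dhrs3 carry predicted gene names or belong to multigene families, and near-identical copies may share reads, so single values are uncertain. Examples, chosen after their values were seen, are Pramef12, a member of the Prame family (118 CPM in Neil2 and 43.5 CPM in the control, log2 fold change 1.46, SE 0.27, FDR 0.0052), and the zinc finger gene Zfp600 (7.27 and 0.889 CPM, log2 fold change 3.06, SE 0.59, FDR 0.00639). Vps13d, which starts 0.0798 Mb from Dhrs3, was not called in Neil2 (0.36, SE 0.14). Within 5 Mb the medians in EBs + RA were lower, at 0.45, 0.43 and 0.47. In EBs without RA the genes within 2 Mb of Dhrs3 had medians of 0.36 in Neil1, 0.53 in Neil2 and −0.12 in Apex1. There 13 of 34 were raised and 4 lowered in Neil1, and 11 of 36 raised and 0 lowered in Neil2. In Apex1 EBs 1 of 43 was raised and 2 were lowered. Of all genes tested in EBs, 10.4%, 8.65% and 4.12% were raised and 13.1%, 7.69% and 4.77% lowered.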

How the data were processed

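Total RNA of whole mESC cultures or whole EBs was made into polyA libraries with a kit that does not mark strand and sequenced for 51 cycles. The authors aligned the reads with TopHat to NCBIM37 and deposited raw counts per gene from HTSeq-count; the submitters' processing notes name TopHat2 2.0.9, Bowtie2 2.1.0, HTSeq 0.5.4 and DESeq2 1.6.3. Reads that matched several places (11.4% to 19.9%), no gene (5.86% to 8.85%) or several genes (1.89% to 2.88%) stayed out of library sizes and tests. Counts were tested with edgeR 4.0.16 (quasi-likelihood, robust, TMM, filterByExpr) in R 4.3.3, with a fit for each of 23 comparisons and Benjamini-Hochberg adjustment over all genes tested. Calls needed an FDR under 0.1 and, except for interactions, a log2 fold change beyond 0.5 in size. The standard error was the absolute log2 fold change divided by the square root of F. The Apex1 duplicates were summed and fitted with the spread of the other groups. CPM used TMM factors over all libraries, and correlations used log2 CPM with a prior count of 2. DESeq2 1.42.0 (Wald), its size factors in edgeR, no filter, all stages and genotypes in 1 fit, a replicate block, other limits and fits leaving out 1 library were the alternatives. The fits were also run on simulated counts with the same dispersion for every gene and no separate clone effect. Such counts cannot show how the fits behave with the spread of these clones.

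EBs with and without RA came from the same cultures of a clone, split on day 4, and same-numbered libraries deviated together (r 0.167 to 0.483). EBs and mESCs of a number are also taken as the same clone, but their deviations do not show it. Their r was −0.469 to 0.204, against −0.454 to 0.497 for different numbers of the same genotype. Clones of different genotypes, mutant with control and Neil1 with Neil2, share only a number, with r above 0.1 in 8 of 27 pairs, although all 3 pairs of Neil1 and control EBs + RA were above 0.1.

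The members and gene lists were chosen with earlier results of these data known. Named were all 9 members and all receptors, up to 4 called genes of the metabolism and target lists per comparison by size of change with a mean of at least 1 CPM, the leading markers by CPM, and the genes closest to each member by correlation over group means. Sox1 was not analysed here, and Hoxa3, which has overlapping identifiers, was left out. A further gene of the target list is not reported here by name. Clones of a group are separate lines, while for the Apex1 line p-values rest on the spread of the others.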

Additional observations from a re-analysis of the deposited data

Results flagged for a closer look

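The RA response of 7 members in Neil1 and 4 in Neil2 differed from that of the control by the interaction test of edgeR, and these differences are listed because 2 groups responded unequally to the same treatment. In Neil1 the log2 differences were 2.1251 for Cyp26a1, 1.576 for Cyp26b1, 1.8019 for Cyp26c1 and 1.7226 for Rdh10, all larger responses. Those of Cyp26b1 and Cyp26c1 start from 8 to 12 and 4 to 17 counts per Neil1 EB library, and Cyp26b1 was not called in Neil1 EBs + RA. Smaller responses were −3.3522 for Aldh1a2, −3.9792 for Crabp1 and −1.2182 for Crabp2, the last of which lost its call in 4 of 6 fits that left out 1 clone. In Neil2 the log2 differences were 1.9395 for Cyp26a1 and 0.8381 for Rdh10, and −2.8235 for Aldh1a2 and −3.7334 for Crabp1. Neural progenitor and neural crest markers were lower and pluripotency markers higher in the same mutant EBs + RA, endoderm markers were higher than in every control clone in Neil1, and their part in these differences was not tested.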

How the results depend on the processing

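No called log2 fold change of a member turned its sign under any alternative that was run. Counts of members called moved by over 1.5 times as follows. In mESCs Neil1 went from 0 to 2 with DESeq2, 1 with no filter and 2 with all libraries in 1 fit, and Apex1 from 0 to 1 with DESeq2. The share of all genes called went there from 1.82% to 6.43%, 2.05% and 5.17% in Neil1 and from 1.98% to 11.4% in Apex1. In EBs Neil1 went from 5 to 3 at an absolute log2 fold change above 1, Neil2 from 2 to 4 with DESeq2 and 1 at that fold limit, and Apex1 from 3 to 1 at an FDR below 0.05. With DESeq2 the share of all genes called in Neil2 EBs went from 16.3% to 16.8%. In EBs + RA Apex1 went from 1 to 3 with DESeq2, 0 with no filter and 3 in the 1 fit, and Neil1 against Neil2 from 0 to 1 with DESeq2 and 1 in the 1 fit. The share of all genes called went there from 7.21% to 11.3%, 4.61% and 11.8% in Apex1. Between Neil1 and Neil2 that share went from 0% to 0.742% and 0.563%. EBs against mESCs of Apex1 went from 2 to 1 at an FDR below 0.05, and the Apex1 interaction from 0 to 1 with DESeq2. For that interaction the share of all genes called went from 1.98% to 4.53%. The cause was not tested.

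Pairing by the replicate block called 2 members in Neil2 mESCs (Cyp26b1 and Crabp1), 3 in Neil2 EBs, with Cyp26a1 added, and 5 in the Neil2 interaction. In these comparisons it called 4.06%, 13.0% and 24.8% of all genes tested. It changed no other call of a member, and the block could not be fitted for Apex1. Leaving out 1 library gave, against control, 0 to 2 members in Neil1 and Neil2 mESCs and 0 to 1 in Apex1 mESCs. It gave 4 to 6, 1 to 6 and 0 to 3 in Neil1, Neil2 and Apex1 EBs, and 5 to 6, 4 to 5 and 0 to 1 in EBs + RA. Neil1 against Neil2 stayed at 0. The RA response had 9 in the control, 7 to 8 in Neil1, 7 to 9 in Neil2 and 8 in Apex1, EBs against mESCs 6 to 8, 5 to 6, 4 to 6 and 2, and the interaction 4 to 7, 2 to 4 and 0. Without control clone #7, 2, 2 and 1 members were called in Neil1, Neil2 and Apex1 mESCs. The share of all genes called in fits that left out 1 library is not given here, so these counts have no background. Depth limits Cyp26c1 in mESCs, with 0 to 7 counts a library, and Cyp26b1 in EBs, with 8 to 59.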
